A study of Mus musculus with 10 samples.

Results

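The collagen genes were 42 mouse genes encoding collagen chains, chosen by symbol among the 19096 genes with a named probe. Col7a1 and Col17a1, whose products anchor epithelium, were not among them. Each gene was represented by its brightest probe over all 10 arrays, so that the choice of probe did not use the difference between groups. They comprised 11 fibrillar chains, 6 basement membrane chains and 25 other chains.

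Whole lungs of WT mice (Lkb1f/f; 5 samples) were compared with whole lung tumours, labelled SCC, of CCSPiCreLkb1f/f mice (5 samples). All mice were labelled as strain B6.129 and aged 13 months, all carried the floxed Lkb1 alleles, and none received a treatment. Lkb1 (Stk11) is a tumour suppressor gene whose product is a kinase. In the SCC mice the recombinase iCre was driven by the promoter of the club cell secretory protein (CCSP), which is active in airway epithelium. That promoter is not known to act in fibroblasts or vessels, and which cells gave the collagen signal was not tested. No probe was paired with Lkb1 through the gene table used, so its loss was not checked here. Each sample's total RNA was measured on 1 Agilent array of the whole mouse genome, in a single colour.

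Collagens are triple helices of 3 chains, built from identical or different gene products. Fibrillar collagens are secreted mostly by fibroblasts and form the fibres that bear tension. Type IV collagens form sheet-like networks under epithelium and around vessels. In lung the walls between air and blood hold a network that contains the Col4a3, Col4a4 and Col4a5 chains, beside the Col4a1 and Col4a2 network found in nearly every tissue. Other collagens coat fibrils, form beaded filaments, or span the plasma membrane.

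Of the 10 arrays, 9 had 71.0% to 74.5% of probes well above background, and SCC replicate 5 had 90.2%. SCC replicate 2 correlated with the WT arrays at r = 0.940 to 0.946 across tested probes, and the other SCC arrays at 0.850 to 0.905. Transcripts of the sex chromosomes differed within groups. Xist, expressed from the silenced X chromosome, ranged from 2.27 to 4.33 on 3 arrays (SCC replicate 2 and WT replicates 2 and 3) and from 13.75 to 14.19 elsewhere. On SCC replicate 5 the Y-linked Ddx3y and Eif2s3y also reached 8.34 and 8.64. The squamous markers fixed for this comparison, among them Krt5, Krt14 and Trp63, were called higher for 6 of 7 genes. Their summed signal was 7692 to 9616 on WT arrays and 89587 to 526818 on SCC arrays, lowest on SCC replicate 2. SCC replicates 2 and 5 were therefore left out together in an additional fit of the main counts of collagens and lists below.

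Values are log2 of the quantile-normalised signal, and differences are SCC minus WT on that scale, where 1 is a 2-fold difference. A gene was called when limma gave an adjusted p below 0.05 and the difference was at least 2-fold. Of the 42 collagen genes, 38 were bright enough to be tested. Among them 4 were called higher in SCC and 12 lower, while 22 were not called. Over all 30374 tested probes, 9.92% were called higher and 13.0% lower, 22.9% in all. The median difference of the collagens was -0.28, and that of all tested probes was -0.09. In 23 of the 38 genes the WT and SCC arrays did not overlap, against 37.2% of all tested probes. Without SCC replicates 2 and 5 the counts were again 4 and 12, with the same genes, and 26% of all tested probes were called. Fibrillar chains had 2 genes higher and none lower, basement membrane chains none higher and 4 lower, and the others 2 higher and 8 lower. A gene bright in 1 group alone could pass the brightness rule through that group. With all 10 arrays required to be above background, 32 genes were tested, 3 were higher and 11 lower. Of all probes that met this rule 19.9% were called.

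**Figure D1:**
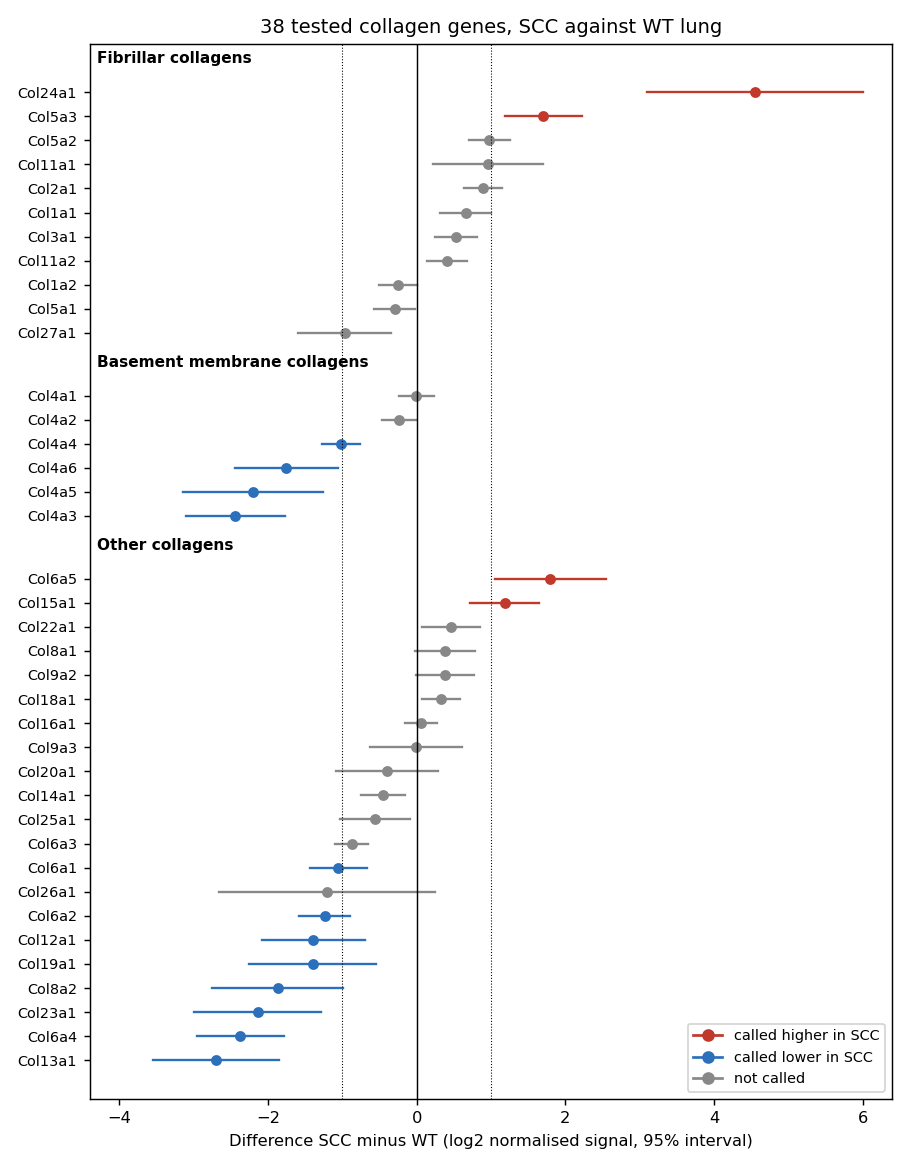
Difference between SCC and WT lung in log2 normalised signal (x axis) for the 38 tested collagen genes (y axis), grouped by kind of chain, with points at the difference and lines for the 95% interval from limma (5 arrays a group). Dotted lines mark a 2-fold difference. Col24a1, whose WT signals were all below background so that its position is no exact difference, is farthest to the right, and Col13a1 at -2.70 farthest to the left.

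The arrays lay on 3 slides, which were not balanced over groups. Slide 2 alone held both, with 1 WT and 3 SCC arrays. With slide as a block the differences rest on that slide, and all 16 called genes kept their sign there. Of these, 5 were called: Col5a3 higher, and Col4a3, Col6a2, Col6a4 and Col19a1 lower. The last of these was above background on 1 SCC array only. With that block 9.84% of all tested probes were called. With normexp background correction 2 collagens were called higher and 9 lower, and 13.1% of all tested probes were called. The calls lost were those of Col15a1, Col6a5, Col4a4, Col6a1 and Col19a1. Col19a1 then differed by -0.18.

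The main fibre-forming chains were all bright in both groups and none was called. Col1a1 and Col3a1 passed the test below 2-fold, and Col1a2 did not pass. Col1a1 gave log2 signals of 13.76, 13.23, 13.46, 13.06 and 13.24 on WT replicates 1 to 5 and of 13.93, 13.95, 13.86, 14.38 and 13.92 on SCC replicates 1 to 5. Col1a1 encodes the major chain of type I collagen, the principal fibre of connective tissue. All SCC arrays lay above all WT arrays, with SCC replicate 4 the highest, and the difference of 0.66 ± 0.15 (SE; adjusted p = 0.00581) stayed under 2-fold. Its other tested probes differed by 0.77 (adjusted p = 0.00531) and 0.91 (adjusted p = 0.054). The last of these was above background on 1 WT and 4 SCC arrays, so its difference rests largely on WT signals below background.

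On WT replicates 1 to 5 Col1a2 stood at 15.46, 15.25, 15.40, 15.08 and 15.30 log2 units, and on SCC replicates 1 to 5 at 14.88, 15.21, 14.92, 15.25 and 14.95. Col1a2 encodes the partner chain in the type I helix. The groups overlapped, and the difference of -0.25 ± 0.11 (SE; adjusted p = 0.0892) did not pass. For Col3a1 the log2 signals of WT replicates 1 to 5 were 14.29, 13.90, 14.27, 14.00 and 13.74, and those of SCC replicates 1 to 5 were 14.47, 14.63, 14.44, 14.66 and 14.63. Col3a1 encodes type III collagen, which is laid down with type I in lung and vessel walls. The groups did not overlap, and the difference was 0.53 ± 0.12 (SE; adjusted p = 0.0062), again under 2-fold. A dimmer Col3a1 probe gave 0.44 (adjusted p = 0.346).

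Type V and type XI chains sit inside type I and type II fibrils and set their diameter. The log2 signal of Col5a3 was 8.39, 7.76, 8.68, 8.25 and 7.93 on WT replicates 1 to 5, and 10.01, 9.24, 10.37, 9.92 and 9.99 on SCC replicates 1 to 5. Every SCC array exceeded every WT array, with SCC replicate 2 the lowest of its group. Col5a3, a minor type V chain, was called higher by 1.70 ± 0.23 (SE; adjusted p = 2.73e-04), which is 3.25-fold. Col5a2 was 9.71 to 10.17 on WT arrays and 10.59 to 11.09 on SCC arrays. Its difference of 0.98 ± 0.12 (SE; adjusted p = 1.77e-04) lay just below 2-fold, and passed it without WT replicate 1 (1.06) and without SCC replicate 1 (1.04). Col5a1, which encodes the chain common to most type V helices, differed by -0.30 ± 0.12 (SE; adjusted p = 0.0726) with overlapping groups, while its other tested probe gave 0.49 (adjusted p = 0.0766).

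Chains known best from cartilage were measured too. Col2a1, the main cartilage fibre chain, was 9.69 to 10.18 in WT and 10.67 to 10.91 in SCC, a difference of 0.89 ± 0.12 (SE; adjusted p = 2.17e-04), while its other probe gave 0.59 (adjusted p = 0.0754). Col11a1 was dim in both groups, at 3.88 to 4.68 and 4.52 to 6.33, and differed by 0.96 ± 0.33 (SE; adjusted p = 0.0361). Col11a1 passed 2-fold without WT replicate 4, SCC replicate 3 or SCC replicate 4, at 1.03, 1.17 and 1.11. With another array left out it was as low as 0.72, and with normexp it was 0.25 (adjusted p = 0.0557). Col11a2 differed by 0.41 ± 0.12 (SE; adjusted p = 0.0169) on this probe and by 0.0021 (adjusted p = 0.994) on its other one. Col27a1, another cartilage chain, went the other way at -0.97 ± 0.28 (SE; adjusted p = 0.0168), and its other probe gave -0.55 (adjusted p = 0.121). The brighter probe was called lower when any of WT replicates 1, 2 and 3 or SCC replicates 2 and 4 was left out, between -1.14 and -1.01. Of 8 chondrocyte markers 4 were tested, and Sox9, a regulator of cartilage and of some epithelia, was called higher at 5.11 (adjusted p = 3.25e-06). The other tested markers, Acan, Comp and Snorc, did not pass, at 0.53 (adjusted p = 0.38), 0.38 (adjusted p = 0.351) and 0.33 (adjusted p = 0.149). Matn1, Matn3, Hapln1 and Cnmd, which cartilage cells express, cleared the background on 0 WT arrays and on 1 SCC array each. Matn1 (5.22) and Cnmd (5.28) were highest on SCC replicate 5, the array with 90.2% of probes well above background. Matn3 (4.15) and Hapln1 (4.40) were highest on SCC replicate 3. The part of cartilage cells in the signal of the cartilage chains was not tested.

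Among the 38 tested collagens the largest positive difference was that of Col24a1, a fibrillar chain described in developing bone and cornea. Col24a1 gave log2 signals of 3.73, 3.63, 3.71, 3.52 and 3.25 on WT replicates 1 to 5 and of 8.82, 5.35, 9.40, 8.48 and 8.56 on SCC replicates 1 to 5. Its probe cleared the background on all 5 SCC arrays and on 0 of 5 WT arrays, with SCC replicate 2 far below the others. Col24a1 was at least 17.0-fold higher in SCC, measured against the lowest signals above background on the WT arrays (adjusted p = 3.69e-04, limma). The bound was 27.4-fold without SCC replicate 2 and 13.6-fold to 17.8-fold without any other single array. On slide 2 alone it was 11.6-fold, and with slide as a block the call was lost (adjusted p = 0.0548). The measured difference, which is no bound, was 4.55 and with normexp correction 1.83, still called. A second Col24a1 probe was too dim to be tested. Because this chain stood out, the reference sequence around its annotated start is shown (RefSeq, GRCm38.p6, chr3:145292222-145292521, plus strand), running from 250 bases before the start to 50 after it. No searched motif occurs in it. These were the CCAAT box (CCAAT), the TATA box (TATAAA), the GC box (GGGCGG) and the AP-1 site (TGACTCA or TGAGTCA), on both strands. No other letters were searched, and TGACGTCA, which the window holds, was not among them.
Col24a1: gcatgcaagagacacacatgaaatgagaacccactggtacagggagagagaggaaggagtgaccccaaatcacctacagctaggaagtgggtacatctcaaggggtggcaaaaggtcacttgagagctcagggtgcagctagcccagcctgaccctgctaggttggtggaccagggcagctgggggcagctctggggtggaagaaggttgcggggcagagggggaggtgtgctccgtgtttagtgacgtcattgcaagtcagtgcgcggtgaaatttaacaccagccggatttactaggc

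**Figure D2:**
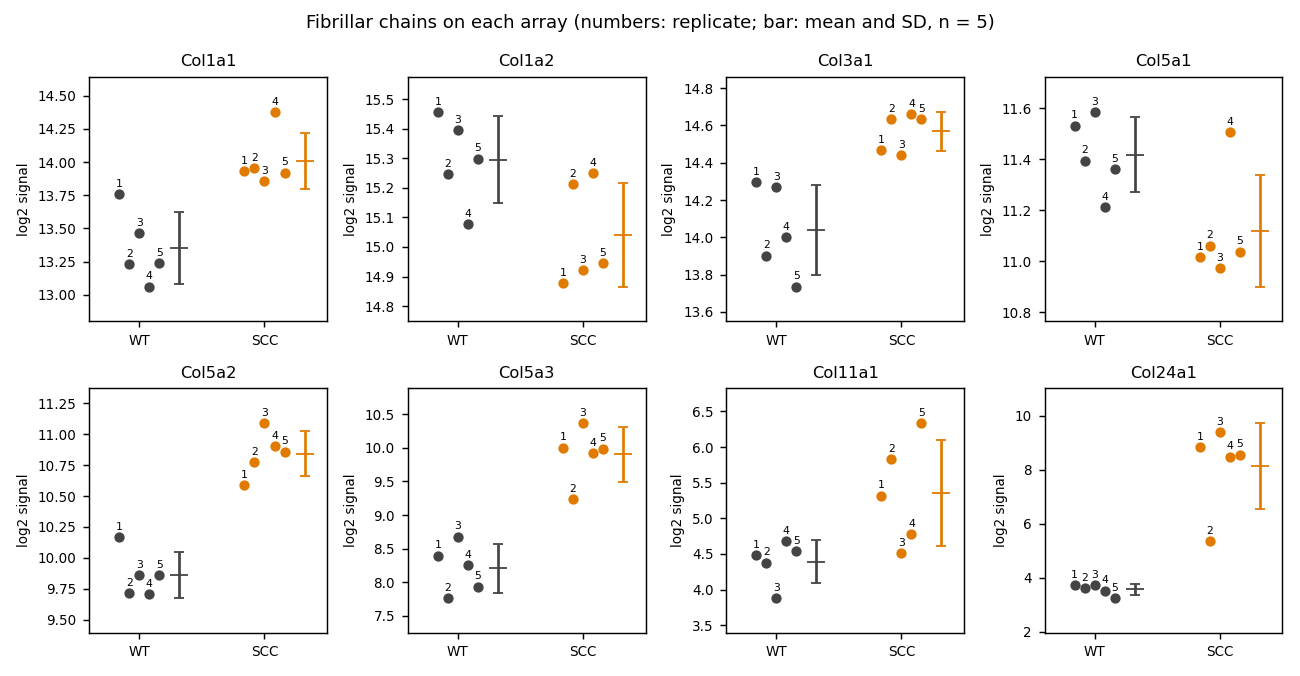
Log2 normalised signal (y axis, a separate scale for each gene that does not start at 0) of 8 fibrillar chains on each array, WT in grey and SCC in orange, with replicate numbers beside the points and the mean and SD (n = 5) to the right. Col24a1 ranged from 3.25 to 3.73 on WT arrays and from 5.35 to 9.40 on SCC arrays, whereas Col1a2 and Col5a1 overlapped.

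Basement membrane chains split by network: the ubiquitous Col4a1 and Col4a2 were not called, and the other 4 type IV chains were all called lower in SCC. On WT replicates 1 to 5 Col4a1 stood at 13.46, 13.11, 13.38, 13.11 and 13.10 log2 units, and on SCC replicates 1 to 5 at 13.08, 13.38, 13.28, 13.22 and 13.18. The values were interleaved, with a difference of -0.0041 ± 0.11 (SE; adjusted p = 0.977) and a 95% interval from -0.24 to 0.23. A second Col4a1 probe was higher in SCC by 0.41 (adjusted p = 0.024). For Col4a2 the log2 signals of WT replicates 1 to 5 were 13.39, 13.20, 13.29, 13.18 and 13.43, and those of SCC replicates 1 to 5 were 12.84, 13.23, 13.04, 13.19 and 12.97. Here SCC arrays tended lower with overlap, and the difference of -0.24 ± 0.10 (SE; adjusted p = 0.0731) did not pass.

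The log2 signal of Col4a3 was 11.87, 11.44, 11.80, 11.38 and 11.46 on WT replicates 1 to 5, and 9.06, 10.33, 8.74, 8.97 and 8.65 on SCC replicates 1 to 5. Every SCC array lay below every WT array, and SCC replicate 2 lay closest to them. Col4a3 fell by 2.44 ± 0.30 on the log2 scale (SE; adjusted p = 1.43e-04), a 5.42-fold difference. Its second probe gave -2.53 (adjusted p = 2.44e-04), and within slide 2 the difference was -2.08 (adjusted p = 0.0461).

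Col4a4 gave log2 signals of 12.13, 11.77, 11.94, 11.74 and 11.83 on WT replicates 1 to 5 and of 10.86, 11.06, 10.72, 10.69 and 10.99 on SCC replicates 1 to 5. Both groups were tight and did not overlap. The difference of -1.02 ± 0.11 (SE; adjusted p = 8.16e-05) sat at the 2-fold limit, and it fell short of it without WT replicate 1, SCC replicate 3 or SCC replicate 4 (-0.96, -0.98 and -0.97). Col4a3 and Col4a4 encode partner chains of the same network, whose loss or mutation is known to damage kidney filters.

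Col4a5 and Col4a6 lie head to head on the X chromosome. On WT replicates 1 to 5 Col4a5 stood at 9.95, 9.57, 9.74, 9.58 and 9.83 log2 units, and on SCC replicates 1 to 5 at 7.64, 8.96, 6.22, 7.87 and 6.97. No SCC array reached the WT arrays, and the SCC arrays themselves spanned 6.22 to 8.96. Col4a5, whose chain takes part in both remaining networks, differed by -2.20 ± 0.42 (SE; adjusted p = 0.00209). For Col4a6 the log2 signals of WT replicates 1 to 5 were 10.84, 10.49, 10.78, 10.47 and 10.92, and those of SCC replicates 1 to 5 were 8.79, 10.02, 8.30, 9.30 and 8.32. SCC replicate 2 was again nearest to WT and the groups did not overlap. Col4a6 encodes a chain of smooth muscle and some epithelial basement membranes, and it differed by -1.75 ± 0.31 (SE; adjusted p = 0.0013). Of its other probes, 1 was called lower at -1.37 (adjusted p = 0.00711) and 1 gave 0.09 (adjusted p = 0.615), with groups that overlapped on both. As the mean of its probes Col4a6 was still called, at -1.01. SCC replicate 2, highest of its group for both genes, shared its low Xist with WT replicates 2 and 3. Those WT arrays were at 9.57 and 9.74 for Col4a5, against 9.58 to 9.95 on the other WT arrays.

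The sequences around the starts of these pairs are printed because the genes of each pair are transcribed in opposite directions, and the pairs differed in outcome. Capitals mark motifs from the same search. The annotated starts of Col4a1 (chr8:11312777-11313076, minus strand) and Col4a2 (chr8:11312555-11312854, plus strand) are 21 bases apart, and the windows of 300 bases share 78 bases. Those of Col4a5 (chrX:141475169-141475468, plus strand) and Col4a6 (chrX:141474027-141474326, minus strand) are 1343 bases apart, and their windows share no bases. The distances are of unlike kinds. As annotated, the Col4a1 and Col4a2 transcripts overlap between their starts, whereas a gap separates those of Col4a5 and Col4a6.
Col4a1: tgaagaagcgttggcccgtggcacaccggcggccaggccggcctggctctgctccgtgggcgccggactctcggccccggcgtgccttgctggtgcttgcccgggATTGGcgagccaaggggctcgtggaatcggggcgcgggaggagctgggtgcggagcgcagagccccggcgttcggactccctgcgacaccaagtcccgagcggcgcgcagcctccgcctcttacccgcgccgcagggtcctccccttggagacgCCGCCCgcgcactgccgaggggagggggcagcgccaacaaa
Col4a2: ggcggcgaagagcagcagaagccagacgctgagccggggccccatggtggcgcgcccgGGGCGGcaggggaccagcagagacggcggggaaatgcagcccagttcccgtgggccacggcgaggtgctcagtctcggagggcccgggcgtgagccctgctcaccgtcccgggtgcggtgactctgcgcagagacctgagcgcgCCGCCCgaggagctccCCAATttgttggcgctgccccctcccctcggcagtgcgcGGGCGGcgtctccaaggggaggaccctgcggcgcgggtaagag
Col4a5: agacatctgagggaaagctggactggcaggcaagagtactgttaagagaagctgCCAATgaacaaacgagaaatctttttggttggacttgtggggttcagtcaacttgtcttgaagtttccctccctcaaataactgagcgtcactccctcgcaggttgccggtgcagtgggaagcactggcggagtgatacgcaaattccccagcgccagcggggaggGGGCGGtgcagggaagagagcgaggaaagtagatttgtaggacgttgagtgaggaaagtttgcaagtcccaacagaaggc
Col4a6: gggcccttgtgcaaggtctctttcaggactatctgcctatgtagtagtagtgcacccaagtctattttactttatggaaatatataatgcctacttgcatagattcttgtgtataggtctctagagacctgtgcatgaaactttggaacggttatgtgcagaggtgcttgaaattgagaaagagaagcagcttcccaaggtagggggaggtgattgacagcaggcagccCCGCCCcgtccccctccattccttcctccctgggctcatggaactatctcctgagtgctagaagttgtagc
Each of the windows of Col4a1, Col4a2 and Col4a5 holds a CCAAT box, and all 4 hold a GC box. Over the 42 collagens, 33 had an entry in the table of promoter sequences. A CCAAT box occurred in the entries of 11 of them, a GC box in 21, a TATA box in 4 and an AP-1 site in 1, Col6a1. Of all 32851 promoter windows, 37.4% held a CCAAT box, 35.7% a GC box, 13.6% a TATA box and 5.2% an AP-1 site. A match gives letters, not a bound site.

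**Figure D3:**
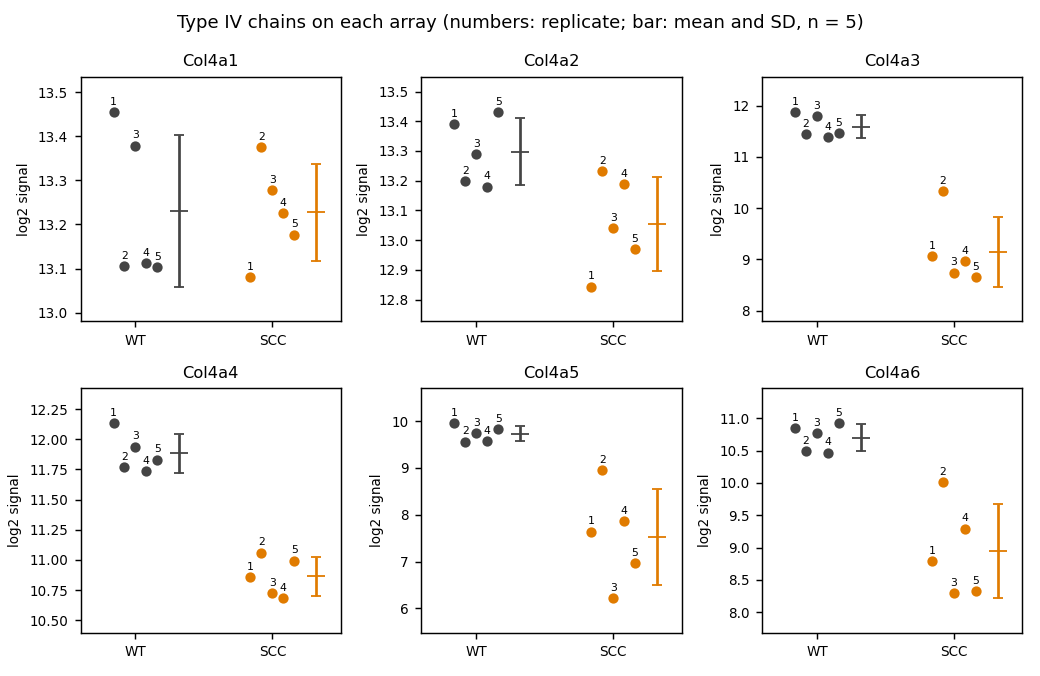
Log2 normalised signal (y axis, a separate scale for each gene that does not start at 0) of the 6 type IV collagen chains on each array, WT in grey and SCC in orange, with replicate numbers beside the points and the mean and SD (n = 5) to the right. Col4a1 and Col4a2 overlapped between groups, and in Col4a3, Col4a4, Col4a5 and Col4a6 every SCC array was below every WT array.

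Among the other chains, the microfibril group of type VI collagen had 1 gene called higher and 3 lower of 5 tested. The common chains Col6a1, Col6a2 and Col6a3 assemble together into beaded filaments around cells. The log2 signal of Col6a1 was 12.22, 12.12, 12.20, 12.27 and 12.37 on WT replicates 1 to 5, and 10.95, 11.82, 11.16, 11.14 and 10.84 on SCC replicates 1 to 5. SCC arrays were all below WT, SCC replicate 2 least so. Col6a1 differed by -1.06 ± 0.17 (SE; adjusted p = 7.68e-04), close to the 2-fold limit, and was not called without SCC replicate 1 (-0.9989) or SCC replicate 5 (-0.97). Col6a2 was 10.08 to 10.33 in WT and 8.58 to 9.47 in SCC, and was called lower at -1.24 ± 0.15 (SE; adjusted p = 1.63e-04). Col6a3 was 13.16 to 13.48 and 12.29 to 12.60 without overlap, at -0.87 ± 0.10 (SE; adjusted p = 1.01e-04). A second, dim Col6a3 probe, above background on 1 SCC array, gave -0.14 (adjusted p = 0.888). As the mean of its tested probes Col6a3 differed by -0.51. The common chains thus lay in the same direction, with Col6a3 short of 2-fold.

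The alternative type VI chains went opposite ways. Col6a4 gave log2 signals of 7.76, 8.34, 8.04, 8.28 and 8.08 on WT replicates 1 to 5 and of 5.79, 6.36, 5.90, 5.81 and 4.77 on SCC replicates 1 to 5. The groups were well apart, and Col6a4 fell by 2.37 ± 0.26 on the log2 scale (SE; adjusted p = 7.83e-05), while a second, dimmer probe gave 0.09 (adjusted p = 0.721). It was -1.16 with normexp and -1.14 as the mean of its probes, called in both. On WT replicates 1 to 5 Col6a5 stood at 4.97, 6.19, 5.93, 5.31 and 5.76 log2 units, and on SCC replicates 1 to 5 at 7.60, 6.51, 8.26, 7.63 and 7.14. All SCC arrays lay above all WT arrays, SCC replicate 2 by the least. Col6a5 was called higher by 1.80 ± 0.33 (SE; adjusted p = 0.00174), and with normexp it stayed under 2-fold at 0.92. Col6a6 and Col28a1, also of this group, were too dim to be tested, as was the growth plate chain Col10a1.

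Transmembrane collagens, single-pass proteins whose outer part can be shed, were called lower for 2 of 3 genes, with a median difference of -2.14. For Col13a1 the log2 signals of WT replicates 1 to 5 were 13.22, 13.18, 13.32, 13.39 and 13.22, and those of SCC replicates 1 to 5 were 10.80, 11.99, 9.53, 10.15 and 10.36. The WT arrays lay close together, and the SCC arrays were all below them and widely spread. Col13a1, found at sites where cells attach to matrix, fell by 2.70 ± 0.38 on the log2 scale (SE; adjusted p = 3.29e-04), 6.49-fold. Its second probe was also called lower, at -1.70 (adjusted p = 0.00503). Within slide 2 the difference was -2.44 (adjusted p = 0.0676). The window around its start, shown as that of the most reduced collagen, lies at chr10:61979059-61979358, minus strand. Its capitals mark the letters of a TATA box near the upstream end of the window, far from the annotated start.
Col13a1: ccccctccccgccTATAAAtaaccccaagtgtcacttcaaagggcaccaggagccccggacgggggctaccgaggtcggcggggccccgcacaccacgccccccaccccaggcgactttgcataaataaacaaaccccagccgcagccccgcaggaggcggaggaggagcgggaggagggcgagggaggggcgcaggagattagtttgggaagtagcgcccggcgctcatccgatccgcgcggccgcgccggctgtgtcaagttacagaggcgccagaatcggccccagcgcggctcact

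The log2 signal of Col23a1 was 10.73, 11.003, 11.35, 10.80 and 11.14 on WT replicates 1 to 5, and 8.47, 10.33, 7.92, 8.85 and 8.78 on SCC replicates 1 to 5. SCC replicate 2 lay near the WT arrays and the other SCC arrays well below. Col23a1 differed by -2.14 ± 0.38 (SE; adjusted p = 0.00136). Of its further probes, 1 was called lower at -2.25 (adjusted p = 7.20e-04) and 1 gave -1.19 (adjusted p = 0.106). Col25a1, the third of this kind, was 5.66 to 5.86 in WT and 4.35 to 5.58 in SCC without overlap, a difference of -0.56 ± 0.21 (SE; adjusted p = 0.0504) that did not pass.

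Network collagens of type VIII, made by vessel walls and corneal endothelium, parted. Col8a2 gave log2 signals of 10.51, 9.96, 10.28, 9.999 and 10.86 on WT replicates 1 to 5 and of 8.51, 9.23, 7.24, 9.35 and 7.93 on SCC replicates 1 to 5. The groups did not overlap, and the SCC arrays were the more widely spread. Col8a2 was called lower at -1.87 ± 0.40 (SE; adjusted p = 0.00349). Col8a1 was 10.97 to 11.84 in WT and 11.70 to 12.03 in SCC, at 0.38 ± 0.18 (SE; adjusted p = 0.103).

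The multiplexins, basement membrane proteoglycans whose ends can be cut off to give inhibitors of vessel growth, were both positive. On WT replicates 1 to 5 Col15a1 stood at 7.23, 7.003, 6.97, 7.32 and 7.03 log2 units, and on SCC replicates 1 to 5 at 8.57, 7.51, 8.64, 8.52 and 8.22. SCC arrays were all higher, SCC replicate 2 by the least. Col15a1 was called higher by 1.18 ± 0.21 (SE; adjusted p = 0.00131), and its second probe, which was above background on no WT array and on all SCC arrays, was called higher as well, by at least 2.58-fold. Col18a1 was 12.47 to 12.83 and 12.71 to 13.20, with a difference of 0.33 ± 0.11 (SE; adjusted p = 0.0389).

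Of 9 fibril-associated chains, which decorate the surface of fibres, 8 were tested and 2 were called lower. Col12a1 was 8.77 to 9.63 in WT and 6.50 to 8.07 in SCC, at -1.39 ± 0.31 (SE; adjusted p = 0.00466). A dimmer Col12a1 probe gave 0.04 (adjusted p = 0.951), and the call was lost with the mean of its probes (-0.67, adjusted p = 0.155). Col19a1 was above background on 4 WT arrays and 1 SCC array. For Col19a1 the log2 signals of WT replicates 1 to 5 were 4.47, 4.48, 4.60, 3.91 and 4.66, and those of SCC replicates 1 to 5 were 2.57, 2.13, 2.48, 3.80 and 4.13. The groups overlapped, with SCC replicate 5 above WT replicate 4. With each array set to no less than its lowest signal above background, SCC was lower by 1.21-fold, which does not reach 2-fold. The call, at -1.40 ± 0.38 (SE; adjusted p = 0.0129), thus rested on signals below background, and it was lost with scaling to the 75th percentile (-1.02, adjusted p = 0.314). Col14a1 differed by -0.45 ± 0.13 (SE; adjusted p = 0.0175) without overlap. Col16a1, Col9a2, Col9a3, Col20a1 and Col22a1 lay between -0.40 and 0.46 and did not pass. Col9a1 was too dim to be tested. Col26a1, which belongs to none of these kinds, differed by -1.20 ± 0.65 (SE; adjusted p = 0.15) with overlap.

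SCC replicate 2 was the SCC array closest to the WT mean in 13 of the 16 called genes. The exceptions were Col8a2 and Col12a1, closest on SCC replicate 4, and Col19a1, closest on SCC replicate 5.

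Chains that assemble or act together were then compared directly, as the log2 ratio of both probes on each array. A change in such a ratio says only that the chains changed unequally. Of 13 pairs, chosen with earlier results of these data known, 11 had both chains tested. Their ratios come from the same signals as the gene differences above and are no separate support. In the exact two-sided permutation test of 5 against 5 arrays, 7 ratios differed at an adjusted p below 0.05 over the 11 pairs. The smallest p that this test can give is 0.00794. Of the 7 ratios, 5 passed under all 14 alternatives of scaling, background and left-out arrays, and those of Col4a5 to Col4a6 and of Col4a1 to Col4a2 did not. The number was again 7 without SCC replicates 2 and 5, with Col4a1 over Col4a2 lost (adjusted p = 0.123) and Col6a1 over Col6a3 gained (adjusted p = 0.0281).

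In type I collagen the ratio of Col1a1 to Col1a2 was higher in SCC by 0.91 (exact permutation p = 0.00794, adjusted p = 0.0175). The ratio of Col1a1 to Col3a1 changed by 0.13 (exact permutation p = 0.302, adjusted p = 0.302). In type V the ratio of Col5a1 to Col5a2 changed by -1.28 (exact permutation p = 0.00794, adjusted p = 0.0175), and none of its SCC values reached the WT range. With the other Col5a1 probe it changed by -0.48 (exact permutation p = 0.127) and did not pass. For Col11a1 over Col11a2 the change was 0.55 (exact permutation p = 0.246, adjusted p = 0.271), with wide spread on the SCC arrays.

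In type IV the ratio of Col4a1 to Col4a3, which sets the common network against the alveolar one, was higher in SCC by 2.43 (exact permutation p = 0.00794, adjusted p = 0.0175). The ratio of Col4a3 to its partner Col4a4 changed by -1.42 (exact permutation p = 0.00794, adjusted p = 0.0175). The ratios of Col4a5 to Col4a6 and of Col4a1 to Col4a2 changed by -0.45 (exact permutation p = 0.0159, adjusted p = 0.0291) and 0.24 (exact permutation p = 0.0238, adjusted p = 0.0374). Both passed narrowly. With the other Col4a6 probes the first changed by -0.83 (exact permutation p = 0.0159) and -2.29 (exact permutation p = 0.00794). The second changed by 0.65 (exact permutation p = 0.00794) with the other Col4a1 probe and by 0.16 (exact permutation p = 0.0873) with the other Col4a2 probe. That of Col4a5 to Col4a6 missed the threshold with scaling to the 75th percentile (adjusted p = 0.187), with normexp (adjusted p = 0.2) and without any single WT array. That of Col4a1 to Col4a2 missed it without WT replicate 2, 4 or 5 or SCC replicate 1, 2, 3 or 5. The type VI ratios Col6a1 over Col6a2 and Col6a1 over Col6a3 changed by 0.18 (exact permutation p = 0.159, adjusted p = 0.218) and -0.18 (exact permutation p = 0.222, adjusted p = 0.271). Col8a1 over Col8a2 was higher by 2.25 (exact permutation p = 0.00794, adjusted p = 0.0175). The slides entered no test of the ratios. On slide 2 alone, with 1 WT and 3 SCC arrays, the 7 ratios had the same sign, from -1.30 for Col5a1 over Col5a2 to 3.37 for Col8a1 over Col8a2.

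**Figure D4:**
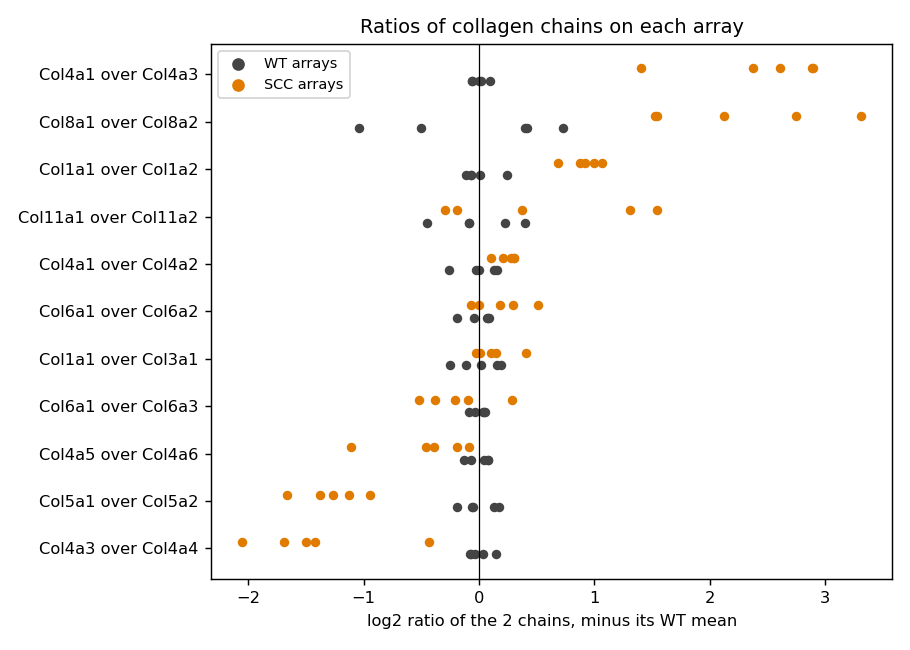
Log2 ratio of the probes of 2 collagen chains on each array, given relative to the mean ratio of the 5 WT arrays (x axis), for 11 pairs (y axis), with WT arrays in grey and SCC arrays in orange. The ratio of Col4a1 to Col4a3 was higher in SCC by 2.43 and that of Col4a3 to Col4a4 changed by -1.42, with no overlap of groups in either.

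Of 20 tested genes that modify, fold and export collagen chains, 3 were called higher and 3 lower, with a median difference of 0.08. Over all tested probes 9.92% were higher and 13.0% lower, which is the background for this and the following lists. P4hb, part of the prolyl hydroxylase that stabilises the helix, was called higher at 1.04 (adjusted p = 1.47e-04). The call of P4ha3, a catalytic subunit of that enzyme, rested on signals below background on all WT arrays. P4ha3 was above background on 4 SCC arrays, the groups overlapped, and it was at least 1.04-fold higher, a bound that does not reach 2-fold. Creb3l1, a transcription factor of secretory cells that acts on collagen genes, was higher at 1.51 (adjusted p = 0.00396). Colgalt2, which adds galactose to hydroxylysine, fell at -3.03 (adjusted p = 6.44e-05). Plod2, the lysyl hydroxylase of the chain ends, and Fkbp14, a folding enzyme, were lower at -2.37 (adjusted p = 1.09e-04) and -1.43 (adjusted p = 0.00125). Without SCC replicates 2 and 5 the counts were 2 higher and 4 lower, and P4hb fell just short of 2-fold.

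Of 11 tested genes of propeptide removal and crosslinking, 1 was called higher and 3 lower, with a median of -0.25. Pcolce2 and Pcolce, which speed the cutting of propeptides, were lower at -4.09 (adjusted p = 4.58e-04) and -1.003 (adjusted p = 0.0173). Pcolce2 was 15.18 to 15.38 in WT and 9.23 to 13.42 in SCC, the largest drop in this list. Pcolce lay at the 2-fold limit, and its SCC replicate 2 (15.56) was above all WT arrays (15.31 to 15.48). Without SCC replicate 5 the list had 2 genes lower. Adamts3, a procollagen protease, was lower at -2.23 (adjusted p = 8.02e-04). Loxl4, an enzyme of the lysyl oxidase family that makes crosslinks, was called higher at 1.49 (adjusted p = 0.0176). It was above background on 1 WT and 4 SCC arrays, and with each array at no less than its lowest signal above background it was 1.69-fold higher, short of 2-fold. Lox itself differed by 0.19 (adjusted p = 0.57).

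Proteins that bind fibrils were called lower for 5 of 10 tested genes and higher for none, with a median of -1.12. Ogn, Prelp and Aspn, small leucine-rich proteins of connective tissue, differed by -3.55 (adjusted p = 1.04e-04), -1.92 (adjusted p = 1.84e-04) and -1.68 (adjusted p = 0.00598). The 10 tested genes included 1 with a positive difference, Fn1 (fibronectin), at 0.64 (adjusted p = 6.64e-04). Without SCC replicates 2 and 5, 6 were called lower.

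Collagen receptors were called lower for 4 of 8 tested genes and higher for none, with a median of -1.15. Itga11 and Itga1, integrin subunits that bind collagen, differed by -2.85 (adjusted p = 3.15e-04) and -2.09 (adjusted p = 1.34e-04). Ddr2, a receptor kinase for fibrillar collagen, differed by -1.56 (adjusted p = 4.64e-05). Each of these genes had SCC arrays wholly below WT arrays. Without SCC replicates 2 and 5 together the count was again 4, and without SCC replicate 2 alone it was 3.

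Partners of type IV collagen in basement membranes were mostly not called, with 1 of 15 tested higher, 2 lower and a median of -0.45. Pxdn, the peroxidase that crosslinks type IV collagen, was lower at -1.86 (adjusted p = 1.55e-05). Lama2, a laminin chain of muscle and mesenchyme, was lower at -1.51 (adjusted p = 0.00522). Lama1, a laminin chain best known from embryos, was higher at 2.17 (adjusted p = 0.00564), from a level above background on 3 WT arrays. The number lower became 4 without SCC replicates 2 and 5.

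Proteases that cut collagen ran the other way, with 4 of 6 tested genes called higher, none lower and a median of 2.00. Ctsk, a cysteine protease that cleaves within the helix, was 10.68 to 11.78 in WT and 11.88 to 15.002 in SCC, at 2.71 (adjusted p = 0.00275). Mmp14, a membrane-bound collagenase, was 12.41 to 12.85 and 14.25 to 15.17, at 2.24 (adjusted p = 1.23e-05). Mmp13, a secreted collagenase, was higher at 2.22 (adjusted p = 0.0108), with SCC replicate 2 inside the WT range. Mmp2 differed by -0.08 (adjusted p = 0.514). Without SCC replicates 2 and 5, 5 were called higher.

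These list counts were smaller with slide as a block, as were those over all 30374 tested probes (1402 higher and 1587 lower, 9.84% in all). Then 1 gene of chain modification was called higher and 2 lower, 0 of propeptide removal and crosslinking, and 1 fibril-binding gene lower. Of the receptors 1 was lower, of the basement membrane partners 1 was higher and 1 lower, and of the proteases 1 was higher.

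**Figure D5:**
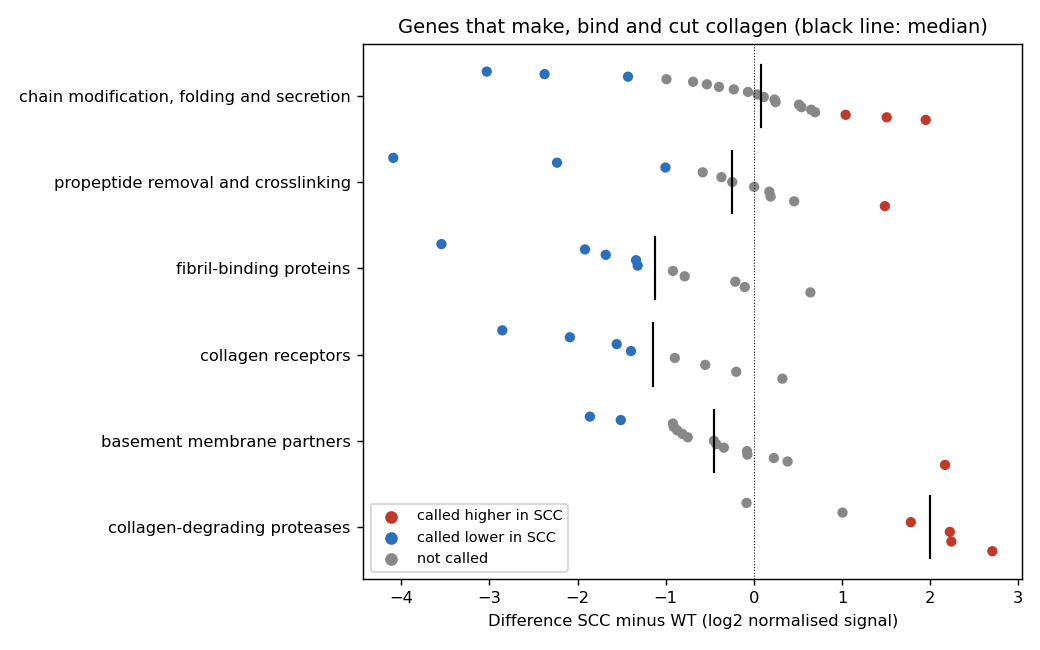
Difference between SCC and WT lung in log2 normalised signal (x axis) for the tested genes of 6 lists around collagen (y axis), coloured by call, with a black line at the median of each list. Proteases have a median of 2.00 with none called lower, and receptors and fibril-binding proteins have medians of -1.15 and -1.12 with none called higher.

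Several lists of cell markers held genes called lower in SCC. In whole tissue, fewer cells of a type and less RNA per cell cannot be told apart. Fibroblast markers were called lower for 5 of 9 tested genes and higher for none, and their summed signal was 57978 to 68034 on WT arrays and 19308 to 32894 on SCC arrays. Tcf21, a regulator of lung fibroblasts, differed by -3.34 (adjusted p = 2.29e-04) and Fap, a marker of activated fibroblasts, by 0.19 (adjusted p = 0.666). Smooth muscle and pericyte markers had 1 higher (Rgs5) and 3 lower of 8, with sums of 35335 to 51462 and 29614 to 42079. Endothelial markers were lower for 7 of 8, with sums of 203841 to 250752 and 37424 to 77985. Mesothelial markers, of the lung's outer lining, were lower for 4 of 5, and alveolar type 1 markers for 4 of 5. Alveolar type 2 markers were called for 0 of 6, with sums of 680005 to 703689 on WT arrays and 507401 to 634894 on SCC arrays. All 6 differences were negative and 4 passed the test below 2-fold. Most of this sum was Sftpc, which stood at the top of the normalised scale (18.80) on all WT arrays and 2 SCC arrays, so that the narrow WT range was set by that ceiling. Cardiac muscle markers were lower for 7 of 8, with sums of 14767 to 154465 and 9981 to 13373, and with slide as a block for none. Adipocyte markers had 1 higher and 4 lower of 5 tested, and with slide as a block none higher and 2 lower. Their sums overlapped, at 10962 to 23513 on WT arrays and 7956 to 32666 on SCC arrays. Without SCC replicates 2 and 5 the fibroblast and endothelial counts were again 5 and 7, and with slide as a block they were 2 and 6. Leaving out those SCC arrays gave 2 smooth muscle and pericyte markers lower in place of 3, 1 alveolar type 2 marker lower in place of 0, and 1 mesothelial marker higher in place of 0. The part of these cells in the collagen differences was not tested.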

How the data were processed

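The authors extracted the single-colour images with Agilent Feature Extraction (version 12 in the processing notes). The deposited scanner files list for every spot a linear, background-subtracted intensity and quality flags. The authors also deposited log2 values, which matched quantile-normalised log2 of the same arrays (r of at least 0.9999 on each, all column medians 7.2) and served as an alternative.

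Control and outlier-flagged spots were dropped, log2 processed intensities were averaged per probe, and 41174 probes were quantile-normalised, as the study's methods state. For 113 probes a flag removed the value of 1 or more arrays, and the fit used the remaining arrays. A probe was tested if well above background on at least 4 of 5 arrays of a group (30374 probes). Well above background meant that at least 0.5 of its spots carried the flag. limma 3.58.1 in R 4.3.3 gave two-sided p-values over the 10 arrays without covariates, with Benjamini-Hochberg adjustment over all tested probes. The study's methods name an analysis of variance, for which limma stood in. Genes were named by accession through RefSeq (GRCm38.p6), which gave 28223 probes (68.5%) a symbol. A fold given as at least a value is a bound for a probe above background on no WT array, taken against a WT mean in which each array contributed its dimmest signal that cleared the background, or this probe's signal where that was higher. No probe was saturated. Differences between any pair of arrays had an SD of at least 0.35 log2 units over probes, so none was a duplicate. The number of arrays limits the precision.

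Groups and replicate numbers came from sample titles. The labels do not say that replicates are separate mice, and p-values measure the spread between these samples. The collagen genes, lists, pairs and tests were chosen with earlier results of these data known. Values on every array were given for 7 chains fixed by name and, in each of 3 groups of chains, for up to 4 called genes in each direction that were bright in both groups, and for any bright in 1 group only. From each of the 6 pathway lists the called genes with the 3 largest differences in each direction were named. Cell marker lists were given by counts, and some of them by sums as well. Fap, Fn1, Lox, Mmp2, Rgs5, Tcf21 and the chondrocyte markers, Sox9 among them, were named after their values were seen. On simulated arrays the fit recovered 193 of 200 probes changed by 2 log2 units (96.5%), with 4 false calls. Alternatives were scaling, background correction, filters, slide, replicate block, array weights, the ordinary analysis of variance, other probes, and left-out arrays. Counts of the lists without SCC replicates 2 and 5 or with slide as a block, fold bounds with arrays left out, differences at the floor, and ratios on other probes or on slide 2 were added after the data were seen. Normexp used the median signal of each spot (offset 50), in place of the mean signal planned. Promoter sequences are from RefSeq, GRCm38.p6.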

Additional observations from a re-analysis of the deposited data

Results flagged for a closer look

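In 76 groups of 5 arrays (38 tested genes in WT and in SCC), 9 had an extreme array separated from the nearest other by more than 0.71 of the group's range. Chance alone separates about 1 in 20 groups this way. On SCC replicate 2 there were 3 such gaps. Col24a1 was low there (5.35 against 8.48 to 9.40, gap 0.774), Col4a3 was high (10.33 against 8.65 to 9.06, gap 0.754), and Col20a1 was high (8.77 against 6.98 to 7.47, gap 0.727). SCC replicate 4 was high for Col1a1 (14.38 against 13.85 to 13.95, gap 0.811) and for Col5a1 (11.51 against 10.97 to 11.06, gap 0.835). SCC replicate 5 was low for Col25a1 (4.35 against 5.26 to 5.58, gap 0.735). Among WT arrays, replicate 1 was high for Col12a1 (gap 0.760), replicate 4 low for Col19a1 (gap 0.743), and replicate 5 high for Col20a1 (gap 0.926).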

How the results depend on the processing

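Over all tested probes the 6954 calls became 3969 with normexp, 2989 with slide as a block, 14878 without the 2-fold rule, and 6385 to 8135 when an array was left out. The 4 collagens higher in SCC became 2 with normexp, 1 with slide as a block, 11 without the 2-fold rule, and 4 to 5 when an array was left out. The 12 lower became 4 with slide as a block, 15 without the 2-fold rule, and 11 to 13 when an array was left out. Ratios that passed ranged from 5 to 7 when an array was left out. With replicate block the counts were 4 and 12 with 6571 probes called, and replicate numbers did not pair the arrays (correlations of deviations from -0.10 to 0.01). The ordinary one-way analysis of variance per probe, which the methods name, gave 4 and 12, with 6525 probes called. Scaling to the 75th percentile turned the split of all calls from 43.3% to 53.2% higher and moved the median of all probes from -0.09 to 0.03.

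Of 889 differences of single collagens under alternatives, 822 kept direction and call, 24 lost a call, 20 gained one and 23 changed sign. The changes of sign were all in Col4a1, Col9a3, Col16a1 and Col5a1, which were not called, or in other probes. Col4a1 became 0.0430 with the 75th percentile, 0.14 with slide as a block, 0.20 as the mean of its probes, 0.41 on its other probe, and -0.041 to 0.052 when an array was left out. Col9a3 became 0.51 with the 75th percentile, 0.46 with array weights, 0.41 without SCC replicates 2 and 5, and -0.15 to 0.19 when an array was left out. Col16a1 became -0.089 with slide as a block and -0.014 to 0.090 when an array was left out. Col5a1 became 0.10 as the mean of its probes and 0.49 on its other probe. Another probe gave 0.041 for Col12a1, 0.091 for Col4a6 and 0.087 for Col6a4. The cause was not tested. Dim probes such as Col19a1, Col11a1 and Col9a3 are limited by signal over background.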

Other observations

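Outside the tested probes, 14 collagen probes were too dim to be compared. SCC replicate 5 was the highest of the 10 arrays on 8 of them. Examples were Col9a1 at 7.75 (next highest array 4.60), Col6a6 at 6.59 (next 3.59) and a second Col14a1 probe at 5.77 (next 1.94). This array also had the largest share of probes well above background.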
